A study of Mus musculus with 12 samples.

Results

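Cancer-associated fibroblasts are the connective-tissue cells of a tumour, and 10 genes that mark them (Pdgfra, Dcn, Lum, Fap, Postn, Pdpn, Fbln1, Thy1, Lox and Sparc) are described here in 12 mouse mammary tumour transcriptomes. The genes were taken by symbol from a table of 41009 gene rows, and all 10 were found. FPKM (fragments per kilobase of transcript, scaled to 1e+06 fragments) is the unit throughout, so levels are already per length and can be set side by side between genes. The filter on low values kept genes that reached 1 FPKM in 3 or more libraries. It left 14306 genes, and the 10 markers were among them. Fap passed it only through libraries of VHH-OD-Fc and Ctrl, with 5 libraries in all at or above 1 FPKM.

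Fibroblasts build and remodel the extracellular matrix. In tumours they deposit fibrillar collagen, cross-link it, and signal to carcinoma, endothelial and immune cells through growth factors and chemokines. Pdgfra encodes a receptor for platelet-derived growth factors that marks resident fibroblasts. Fap encodes a surface serine protease, and Pdpn and Thy1 encode surface glycoproteins used to sort fibroblasts. Dcn and Lum encode small leucine-rich proteoglycans that bind collagen fibrils. Fbln1 and Postn encode glycoproteins of the matrix, Sparc encodes a collagen-binding matricellular protein, and Lox encodes the enzyme that starts the cross-linking of collagen and elastin. None of the 10 is exclusive to fibroblasts: Thy1 is also a T cell antigen in mice, Pdpn also marks lymphatic endothelium, Lox is a target of hypoxia signalling, and Sparc is also made by endothelial and some carcinoma cells.

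The tumours grew from 4T1-mCherry cells, a BALB/c mammary carcinoma line carrying a red fluorescent protein, in the mammary fat pad of BALB/c females aged 4 to 5 weeks. Each of the 4 groups has 3 libraries, and all groups received an Fc fusion protein intraperitoneally after randomisation on day 7. VHH-OD-PD-1-Fc, with both binding domains, was given at 4.3 mg/kg, VHH-PD-1-Fc at 2.6 mg/kg, VHH-OD-Fc at 3.5 mg/kg and Ctrl-Fc (Ctrl below) at 5 mg/kg. A VHH (nanobody) is the part of a camelid antibody that binds its target, and PD-1 is the checkpoint receptor that restrains T cells. The labels do not say what OD stands for, nor whether the 3 libraries of each group stem from 3 animals, so p-values reflect library-to-library spread that may be technical. Each library is a bulk tumour sample, so fewer fibroblasts and less RNA per fibroblast cannot be told apart.

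In the sum of FPKM, the 6 libraries with the PD-1 domain differed as a set from the other 6. It was 388142 to 401179 in the libraries with the domain and 327792 to 345596 in those without it. The number of genes above 0 FPKM did not split the same way. Replicate 2 of VHH-PD-1-Fc had 25553, within the 24924 to 26203 of the libraries without the domain. The other libraries with the domain had 30257 to 31676. Depth, estimated from the steps between low values, was 21.8 to 30.5 M fragments per library (M is 1e+06). At that depth Fap was estimated to rest on 20.5 to 118 fragments and Sparc on 12000 to 25100. No label gives a library batch, and a batch that followed the PD-1 domain cannot be told apart from the treatment. The 3 VHH-OD-PD-1-Fc libraries lay closer together than those of any other group for 7 of the 10 genes: their coefficient of variation ran between 0.6% for Sparc and 8.5% for Dcn. The labels mark them as separate samples and they were counted as such.

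Promoter windows from RefSeq (GRCm38.p6) were used for 5 of the 10 genes. The lookup did not cover every chromosome, so RefSeq may hold windows for more of the 10. Windows of 4 genes are shown, to set genes that were lower after VHH-PD-1-Fc beside one that was not. Each spans 300 bases, with 250 before and 50 after an annotated start site. They are those of Pdgfra and Fbln1, which were lower after VHH-PD-1-Fc, of Postn, which was lower with large scatter, and of Sparc, which was not lower. Capitals mark matches to 5 motifs searched on both strands: the TATA box with the letters TATAAA, the CCAAT box, the AP-1 site with the letters TGANTCA, the TEAD site with the letters GGAATG, and the GC box with the letters GGGCGG. Fbln1 and Postn have an additional annotated start whose window is not printed, nor is that of Pdpn, which was also lower in every VHH-PD-1-Fc library than in Ctrl.
Pdgfra, chr5:75152001-75152300, plus strand: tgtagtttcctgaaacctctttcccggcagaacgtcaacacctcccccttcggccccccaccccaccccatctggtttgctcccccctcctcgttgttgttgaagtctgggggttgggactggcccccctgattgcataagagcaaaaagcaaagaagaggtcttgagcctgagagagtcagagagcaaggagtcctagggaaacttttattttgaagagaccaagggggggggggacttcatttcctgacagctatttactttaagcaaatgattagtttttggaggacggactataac
Fbln1, chr15:85205758-85206057, plus strand: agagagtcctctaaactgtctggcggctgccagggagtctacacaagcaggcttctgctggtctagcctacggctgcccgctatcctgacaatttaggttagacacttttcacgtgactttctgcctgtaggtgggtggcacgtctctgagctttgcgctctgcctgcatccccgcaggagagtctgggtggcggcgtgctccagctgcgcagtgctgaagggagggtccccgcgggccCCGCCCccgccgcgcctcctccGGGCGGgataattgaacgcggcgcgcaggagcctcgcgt
Postn, chr3:54360857-54361156, plus strand: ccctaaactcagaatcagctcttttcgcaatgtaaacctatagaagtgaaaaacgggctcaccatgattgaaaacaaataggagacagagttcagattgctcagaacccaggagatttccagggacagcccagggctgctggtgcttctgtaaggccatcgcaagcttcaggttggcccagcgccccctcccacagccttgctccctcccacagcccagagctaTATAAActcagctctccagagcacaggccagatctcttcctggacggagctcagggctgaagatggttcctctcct
Sparc, chr11:55420031-55420330, minus strand: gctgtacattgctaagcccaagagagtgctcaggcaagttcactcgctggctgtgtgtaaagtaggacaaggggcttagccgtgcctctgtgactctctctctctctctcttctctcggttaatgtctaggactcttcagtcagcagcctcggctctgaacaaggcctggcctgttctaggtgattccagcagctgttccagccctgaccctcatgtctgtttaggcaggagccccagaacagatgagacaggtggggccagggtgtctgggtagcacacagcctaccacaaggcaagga

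The Fbln1 window holds 2 GC boxes, which begin at positions -11 and 12 relative to the start site and lie on opposite strands. The Postn window holds a TATA box that begins at position -26. The Pdgfra and Sparc windows hold none of the 5 motifs. Of the windows not printed, that of Pdpn holds 2 GC boxes, at positions 2 and 45, and that of Postn a CCAAT box at position 25. Across all 32851 mouse windows of that length, 35.7% hold the GC box, 13.6% the TATA box, 37.4% CCAAT, 7.81% the AP-1 site and 14.7% the TEAD site. The GC content is 64.0% in the Fbln1 window with 24 CpG, 51.0% in the Pdgfra window with 5 CpG, 53.0% in the Postn window with 5 CpG and 55.3% in the Sparc window with 4 CpG. The median over all windows is 52.7% with 7 CpG. The 4 printed windows share none of the 5 motifs. These are letters found in a window and not evidence of binding.

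Among the surface proteins, Pdgfra separated the groups most clearly. Its level was 3.06, 3.40 and 3.23 FPKM in VHH-OD-PD-1-Fc tumours, 2.33, 2.57 and 2.87 FPKM in VHH-PD-1-Fc tumours, 6.89, 8.60 and 6.77 FPKM in VHH-OD-Fc tumours and 8.50, 6.32 and 6.03 FPKM in Ctrl tumours. All 6 libraries with the PD-1 domain lay below all 6 without it. The mean fell to 0.373 of the Ctrl mean in VHH-PD-1-Fc tumours and to 0.465 of it in VHH-OD-PD-1-Fc tumours.

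Fap, the fibroblast activation protein, was the lowest of the 10 genes in all 12 libraries. It stood at 0.673, 0.647 and 0.601 FPKM in VHH-OD-PD-1-Fc tumours, 0.313, 0.446 and 0.943 FPKM in VHH-PD-1-Fc tumours, 1.34, 1.60 and 1.03 FPKM in VHH-OD-Fc tumours and 1.61, 1.18 and 0.993 FPKM in Ctrl tumours. The libraries with the PD-1 domain again lay below those without it, but replicate 3 of VHH-PD-1-Fc came close to the lowest Ctrl library.

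Pdpn (podoplanin), a ligand of the platelet receptor CLEC-2, had 13.9, 15.0 and 15.4 FPKM in VHH-OD-PD-1-Fc tumours, 10.6, 4.00 and 14.6 FPKM in VHH-PD-1-Fc tumours, 11.8, 22.9 and 17.1 FPKM in VHH-OD-Fc tumours and 17.2, 20.3 and 17.2 FPKM in Ctrl tumours. All libraries of both PD-1 groups lay below all Ctrl libraries, and replicate 2 of VHH-PD-1-Fc was far below the rest. VHH-OD-Fc overlapped every other group. Lymphatic endothelium also makes Pdpn, and the summed level of its 6 markers, of which Prox1, Mmrn1 and Reln stayed under 1 FPKM in every library, was 3.23 to 4.11 FPKM in VHH-OD-PD-1-Fc tumours, 1.08 to 3.16 FPKM in VHH-PD-1-Fc tumours, 4.71 to 25.4 FPKM in VHH-OD-Fc tumours and 5.86 to 34.6 FPKM in Ctrl tumours. The part of these cells in the Pdpn level was not tested.

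Thy1 ran in another order. It was 55.8, 58.4 and 56.9 FPKM in VHH-OD-PD-1-Fc tumours, 38.8, 46.0 and 33.9 FPKM in VHH-PD-1-Fc tumours, 47.4, 48.3 and 49.5 FPKM in VHH-OD-Fc tumours and 38.0, 54.1 and 49.9 FPKM in Ctrl tumours. The 3 highest Thy1 values of the 12 were those of VHH-OD-PD-1-Fc, and the 3 VHH-PD-1-Fc libraries lay below all of VHH-OD-Fc and overlapped Ctrl. T cells also carry Thy1, and none of their 14 markers was at 0 in any library. The summed level of these markers was 26.2 to 29.9 FPKM in VHH-OD-PD-1-Fc tumours and 34.2 to 89.8 FPKM in VHH-PD-1-Fc tumours. It was 35.4 to 63.9 FPKM in VHH-OD-Fc tumours and 56.9 to 70.1 FPKM in Ctrl tumours. The sum was thus lowest in VHH-OD-PD-1-Fc tumours. By the mean log2 level of the same markers, however, replicate 3 of VHH-OD-Fc was the lowest library, below all of VHH-OD-PD-1-Fc. The part of T cells in the Thy1 level was not tested.

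**Figure D1:**
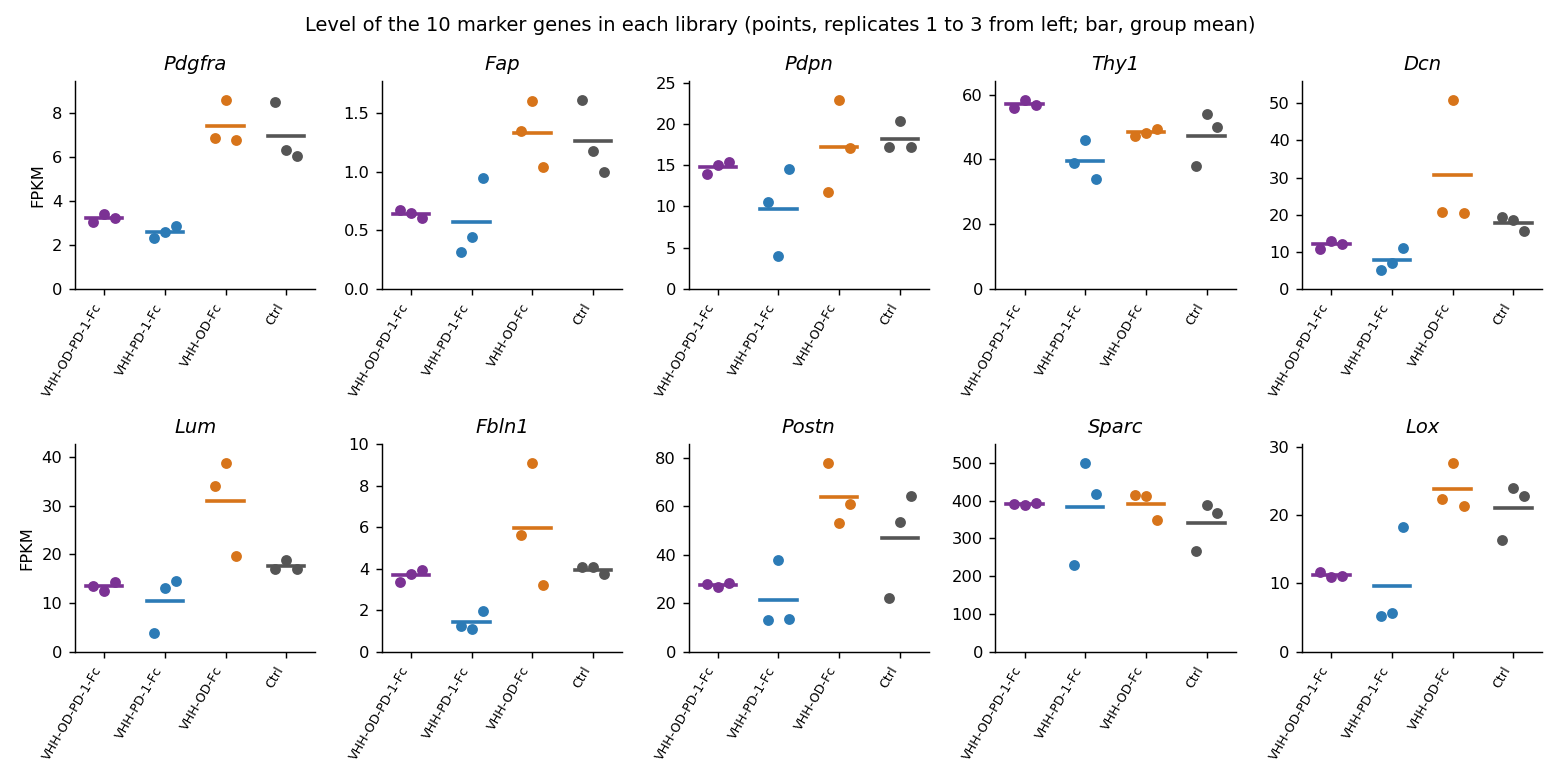
FPKM of each of the 10 fibroblast marker genes in each library (points, linear axis starting at 0) with the mean of each group (bar), groups along the horizontal axis. Pdgfra and Fap lie lower in all 6 libraries with the PD-1 domain, the VHH-PD-1-Fc points of Lum, Pdpn, Postn and Lox are spread widely, and Sparc overlaps among all 4 groups.

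Among the matrix genes, Dcn (decorin), which also binds transforming growth factor beta, was at 10.9, 12.9 and 12.2 FPKM in VHH-OD-PD-1-Fc tumours, 5.19, 6.97 and 11.0 FPKM in VHH-PD-1-Fc tumours, 20.7, 50.9 and 20.5 FPKM in VHH-OD-Fc tumours and 19.4, 18.6 and 15.5 FPKM in Ctrl tumours. Every library with the PD-1 domain was below every library without it, and replicate 2 of VHH-OD-Fc was the highest by a wide margin. Its relative Lum (lumican) had 13.4, 12.6 and 14.3 FPKM in VHH-OD-PD-1-Fc tumours, 3.86, 13.1 and 14.6 FPKM in VHH-PD-1-Fc tumours, 34.0, 38.9 and 19.7 FPKM in VHH-OD-Fc tumours and 16.9, 18.9 and 17.0 FPKM in Ctrl tumours. The same ordering of libraries held, but replicate 1 of VHH-PD-1-Fc alone was far below the others. Both proteoglycans lay higher in all VHH-OD-Fc libraries than in all Ctrl libraries.

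Replicate 2 of VHH-OD-Fc also carried the most skeletal muscle and adipocyte RNA. The summed level of the 12 muscle markers was 239 to 244 FPKM in VHH-OD-PD-1-Fc tumours, 50.2 to 63.5 FPKM in VHH-PD-1-Fc tumours, 50.1 to 2513 FPKM in VHH-OD-Fc tumours and 65.3 to 379 FPKM in Ctrl tumours. That of the adipocyte markers was 24.4 to 28.6 FPKM in VHH-OD-PD-1-Fc tumours, 3.75 to 55.0 FPKM in VHH-PD-1-Fc tumours, 88.3 to 327 FPKM in VHH-OD-Fc tumours and 32.1 to 136 FPKM in Ctrl tumours. The part of surrounding tissue in the Dcn and Lum levels was not tested.

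Fbln1 (fibulin 1), a glycoprotein of elastic fibres and basement membranes, was at 3.39, 3.75 and 3.95 FPKM in VHH-OD-PD-1-Fc tumours, 1.23, 1.09 and 1.97 FPKM in VHH-PD-1-Fc tumours, 5.62, 9.12 and 3.21 FPKM in VHH-OD-Fc tumours and 4.07, 4.08 and 3.74 FPKM in Ctrl tumours. The VHH-PD-1-Fc libraries were below all other libraries, while VHH-OD-PD-1-Fc overlapped Ctrl.

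Postn (periostin), which binds integrins and collagen, was at 28.0, 26.9 and 28.2 FPKM in VHH-OD-PD-1-Fc tumours, 12.9, 37.8 and 13.4 FPKM in VHH-PD-1-Fc tumours, 78.0, 53.0 and 60.8 FPKM in VHH-OD-Fc tumours and 22.2, 53.5 and 64.4 FPKM in Ctrl tumours. Replicate 1 of Ctrl was low and replicate 2 of VHH-PD-1-Fc high, so each group with the PD-1 domain overlapped Ctrl but not VHH-OD-Fc. Sparc had 390, 389 and 393 FPKM in VHH-OD-PD-1-Fc tumours, 230, 501 and 417 FPKM in VHH-PD-1-Fc tumours, 415, 412 and 350 FPKM in VHH-OD-Fc tumours and 268, 390 and 369 FPKM in Ctrl tumours. It was the highest of the 10 genes in every library, and its lowest and highest values both fell within VHH-PD-1-Fc.

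Lox, the cross-linking enzyme, was at 11.6, 10.9 and 11.1 FPKM in VHH-OD-PD-1-Fc tumours, 5.23, 5.61 and 18.2 FPKM in VHH-PD-1-Fc tumours, 22.3, 27.7 and 21.3 FPKM in VHH-OD-Fc tumours and 16.3, 24.0 and 22.7 FPKM in Ctrl tumours. The VHH-OD-PD-1-Fc libraries lay below Ctrl without overlap, and replicate 3 of VHH-PD-1-Fc lay inside the Ctrl range. The summed level of 13 hypoxia targets was 1621 to 1643 FPKM in VHH-OD-PD-1-Fc tumours, 924 to 2027 FPKM in VHH-PD-1-Fc tumours, 1548 to 1808 FPKM in VHH-OD-Fc tumours and 1666 to 1766 FPKM in Ctrl tumours. The sums overlap, but in limma, at an adjusted p under 0.05, 6 of the 13 targets were called lower after VHH-PD-1-Fc against Ctrl and 2 after VHH-OD-PD-1-Fc. Their median log2 difference after VHH-PD-1-Fc was -0.73 and all 13 were negative, where 32.3% of all genes tested were called lower and their median was -0.19. Negative differences were found for 9208 of the 14306 genes tested. Under the other scalings and the length and GC correction 3 to 10 of the 13 were called lower after VHH-PD-1-Fc. The highest count was reached on TPM, where 6800 of 14306 genes tested fell. The part of hypoxia in the Lox level was not tested.

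Which VHH-PD-1-Fc library was lowest depended on the gene. Replicate 1 was lowest for 7 genes (Pdgfra, Fap, Dcn, Lum, Postn, Sparc and Lox), replicate 2 for Pdpn and Fbln1, and replicate 3 for Thy1. Replicate 3 was the highest of the group for Pdgfra, Fap, Pdpn, Dcn, Lum, Fbln1 and Lox. Relative to the Ctrl mean, Lox stood at 25%, 27% and 87% in the 3 VHH-PD-1-Fc libraries, against 55%, 52% and 53% in the 3 VHH-OD-PD-1-Fc libraries.

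**Figure D2:**
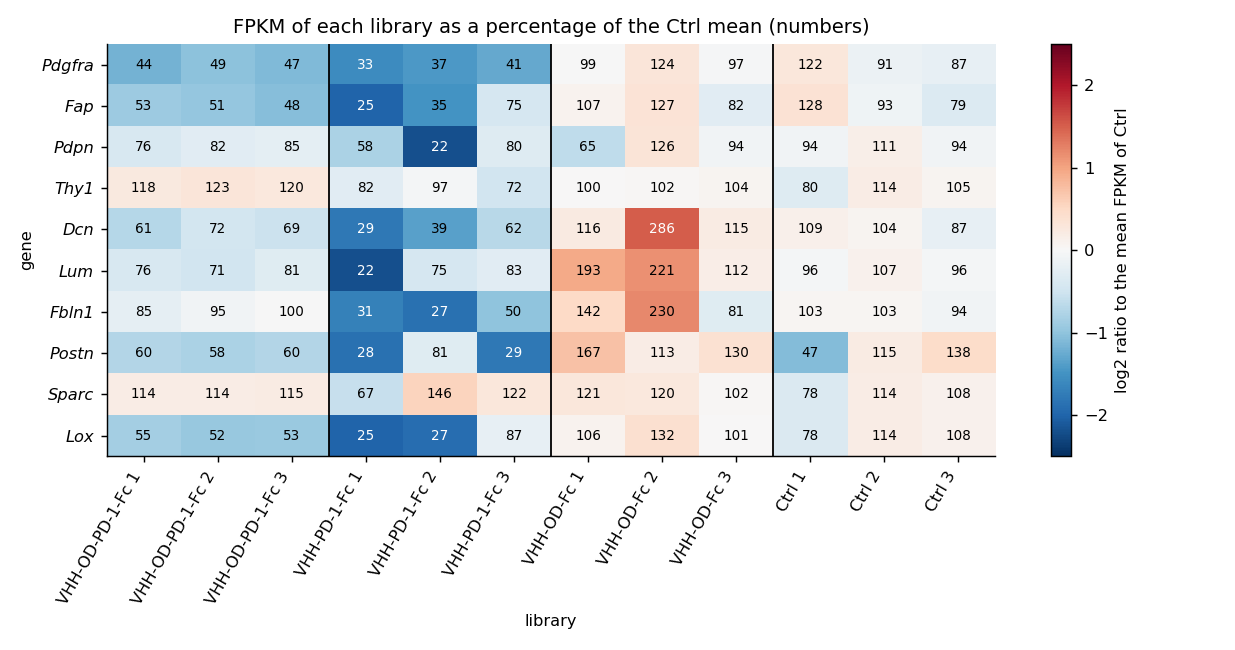
Level of each gene (rows) in each library (columns) as a percentage of the mean of the 3 Ctrl libraries, printed in the cells, with the log2 ratio as colour. Pdgfra is at 33% to 49% in the 6 libraries with the PD-1 domain, and which other genes are low varies among the 3 VHH-PD-1-Fc libraries.

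Whether the level differed anywhere among the 4 groups was asked with the moderated F test of limma on log2(FPKM + 1). At a Benjamini-Hochberg adjusted p under 0.05 it called 8 of the 10 genes, against 49.7% of all genes tested. Pdgfra had the smallest adjusted p, 8.5e-05. Fap (adjusted p = 0.0249) was among the 8, although it passed the filter only through the groups without the PD-1 domain. Pdpn, at an adjusted p of 0.103, and Sparc, at 0.825, were not called.

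VHH-PD-1-Fc against Ctrl addresses the PD-1 domain alone. In limma 7 of the 10 genes fell and none rose, against 32.3% of all genes tested that were called lower. Fold changes here are log2 differences of FPKM + 1, which understate the change of low genes such as Fap and Fbln1. Pdgfra fell by 1.14 (SE 0.13, adjusted p = 0.000143), Fbln1 by 1.05 (SE 0.25, adjusted p = 0.00664) and Dcn by 1.16 (SE 0.32, adjusted p = 0.0127). Lox fell by 1.23 (adjusted p = 0.0139), Fap by 0.54 (adjusted p = 0.0249), Pdpn by 0.99 (adjusted p = 0.0358) and Postn by 1.14 (adjusted p = 0.0446). The libraries of the groups overlapped for Lox and Postn, and Fap is a gene that passed the filter only through the groups without the PD-1 domain. Lum stood at -0.86 (adjusted p = 0.0797) although its groups did not overlap, Thy1 at -0.25 (adjusted p = 0.15), and Sparc at 0.11 with a 95% interval of -0.43 to 0.64, which turned to -0.12 on TPM and -0.31 after quantile normalization. The groups did not overlap for 6 genes, all lower, where 33.7% of all genes tested were lower without overlap.

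The calls differed in how firmly they held. Pdgfra and Fbln1 were called in every setting that tested them, and Dcn in 22 of 24. Without replicate 2 of VHH-PD-1-Fc, Lox (-0.99, adjusted p = 0.0529), Fap (-0.49, adjusted p = 0.0631) and Pdpn (-0.51, adjusted p = 0.0892) were no longer called in limma. Fap was also lost without replicate 1 of VHH-PD-1-Fc (-0.42, adjusted p = 0.0734) or of Ctrl (-0.43, adjusted p = 0.0899), and Pdpn without replicate 1, 2 or 3 of Ctrl (-1.03, -0.91 and -1.03, adjusted p 0.0675 to 0.0914). Postn kept its call in 2 of the 12 fits that left out 1 library, those without replicate 2 of VHH-PD-1-Fc or replicate 1 of Ctrl, and stood between -1.14 and -0.84 in the other 10 (adjusted p 0.0538 to 0.157). Sparc was called higher, at 0.43 (adjusted p = 0.0449), without replicate 1 of VHH-PD-1-Fc. Lum was called lower, at -1.16 (adjusted p = 0.0327), without replicate 3 of VHH-PD-1-Fc, and Thy1 at -0.40 (adjusted p = 0.0236) without replicate 1 of Ctrl.

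The scaling of the libraries bears on these calls. The median over all genes tested was -0.19, and -1.02 over the 10 markers. On TPM the medians were -0.43 and -1.33, after median-of-ratios scaling -0.01 and -0.84, and after quantile normalization -0.02 and -0.80. The markers' median was thus lower than that of all genes under each of these scalings. Over all genes tested, 2092 rose and 4615 fell as deposited, while 3129 rose and 2843 fell after median-of-ratios scaling, 2815 rose and 2593 fell after quantile normalization, and 1346 rose and 6800 fell on TPM. Marker calls numbered 4, 4 and 9 under these 3 scalings in that order. They numbered 2, Pdgfra at -0.77 and Fbln1 at -0.80, once trends on transcript length and GC content were removed from each library. In that setting 2230 of 13533 genes tested fell and 2859 rose. The share of markers called lower was then not far above that of all genes tested.

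**Figure D3:**
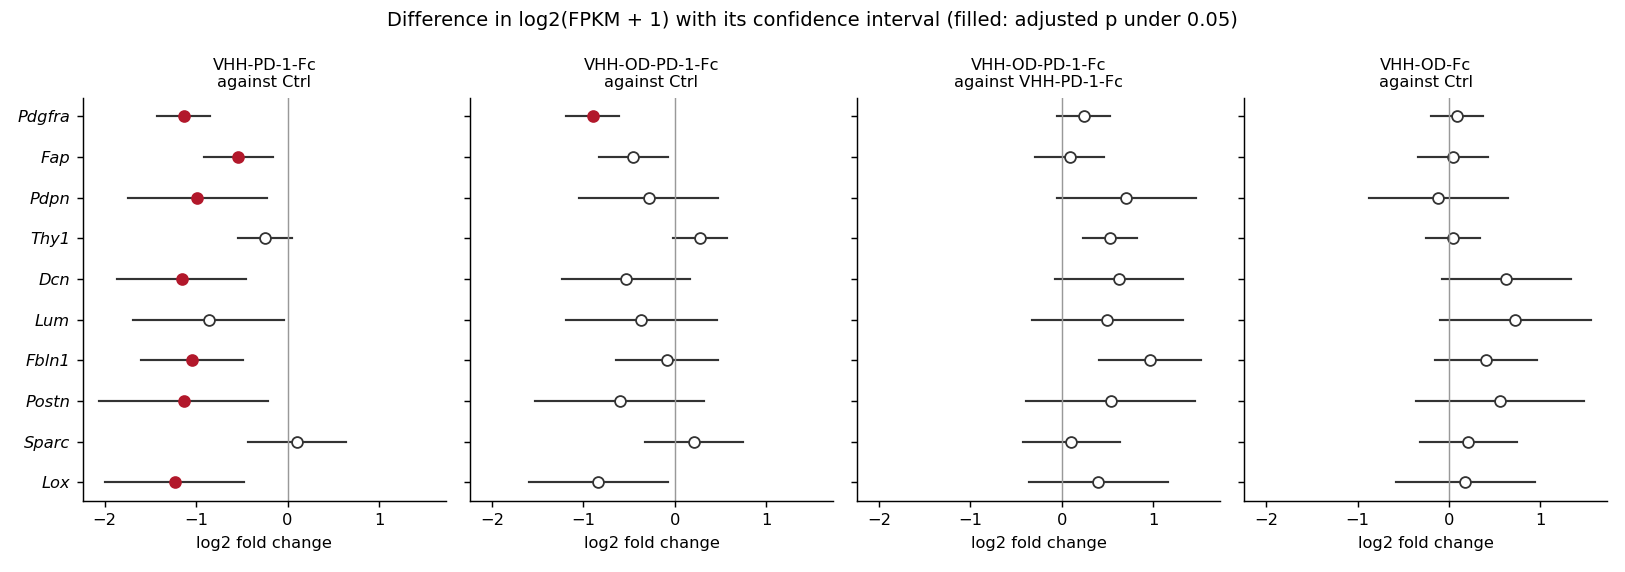
Log2 difference of FPKM + 1 for each of the 10 genes in 4 comparisons, with its 95% interval from limma (points and bars, vertical line at 0, filled points called at an adjusted p under 0.05). Of the 10 genes, 1 is called lower than in Ctrl after VHH-OD-PD-1-Fc and 7 after VHH-PD-1-Fc, and the Sparc interval includes 0 in all 4 panels.

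VHH-OD-PD-1-Fc against Ctrl addresses both domains together. Only Pdgfra was called, at -0.90 (SE 0.13, adjusted p = 0.000529). That is 1 of 10 genes, against 27.1% of all genes tested that were called lower. Fap stood at -0.45 (adjusted p = 0.0537), Lox at -0.84 (adjusted p = 0.0727), Dcn at -0.53 (adjusted p = 0.199), and Postn, Lum and Pdpn at -0.60, -0.37 and -0.28. Thy1 stood at 0.28 (adjusted p = 0.118). Fbln1 stood at -0.08 with a 95% interval of -0.64 to 0.48, and its sign turned after median-of-ratios scaling (0.05), quantile normalization (0.15) and removal of length and GC trends (0.14). The libraries of the groups did not overlap for 7 genes, 6 lower and 1 higher, against 64.4% of all genes tested. Without replicate 3 of VHH-PD-1-Fc, which enters only the shared spread, Lox at -0.84 (adjusted p = 0.00133) and Fap at -0.45 (adjusted p = 0.0244) were called as well. Fap was also called without replicate 1 of VHH-PD-1-Fc (adjusted p = 0.0397), and Postn, at -1.06 (adjusted p = 0.0497), without replicate 1 of Ctrl. For Fap the limit of the filter holds here too, as it passed only through the groups without the PD-1 domain.

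VHH-OD-PD-1-Fc against VHH-OD-Fc asks for the PD-1 domain in the presence of the OD domain. Here 6 of the 10 genes fell, against 24.5% of all genes tested that were called lower. Pdgfra fell by 0.99 (adjusted p = 0.000373), Dcn by 1.16 (adjusted p = 0.0149), Lox by 1.01 (adjusted p = 0.0377), Lum by 1.09 (adjusted p = 0.0389), Fap by 0.50 (adjusted p = 0.0395) and Postn by 1.16 (adjusted p = 0.0470). Fbln1 stood at -0.48, Pdpn at -0.17, Thy1 at 0.23 and Sparc at 0.00, none of them called. The libraries of the groups did not overlap for these 6 genes and for Thy1, against 65.7% of all genes tested. Pdgfra held in every setting. Without any 1 library of either group, Lox (-1.09 to -0.90, adjusted p 0.0679 to 0.106) and Postn (-1.28 to -1.01, adjusted p 0.065 to 0.134) were no longer called. Without any 1 VHH-OD-PD-1-Fc library, or replicate 1 or 2 of VHH-OD-Fc, the same held for Fap (-0.51 to -0.41, adjusted p 0.0821 to 0.129) and Lum (-1.14 to -0.90, adjusted p 0.0767 to 0.123). Without replicate 2 of Ctrl, Postn, Fap and Lum stood at adjusted p between 0.0506 and 0.0553, as did Lum without replicate 3 of Ctrl (0.0524). Dcn was not called without replicate 1 of VHH-OD-PD-1-Fc (-1.09, adjusted p = 0.0502), and Fbln1 was called without replicate 3 of VHH-OD-Fc (-0.80, adjusted p = 0.0137). Fap passed the filter only through the groups without the PD-1 domain, and with no filter on low values it stood at an adjusted p of 0.0706. Markers of other cells fell in the same comparison: 7 of the 7 adipocyte genes that passed the filter, with a median of -1.96, 7 of 9 endothelial genes and 5 of 8 pericyte genes. The part of these cells in the marker calls was not tested. The comparison with Ctrl uses the same VHH-OD-PD-1-Fc libraries.

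VHH-OD-Fc against Ctrl called none of the 10 genes in limma, and none of the 14306 genes tested (0%). At an unadjusted p under 0.05 it had 0 of the 10 genes and 3.14% of all genes tested. The log2 difference was positive for 9 of the 10 and for 6169 of the 14306 genes tested. The median was 0.19 over the markers and -0.02 over all genes tested. Lum at 0.72 (95% interval -0.10 to 1.55) and Dcn at 0.63 (95% interval -0.08 to 1.33) were the 2 genes whose libraries did not overlap, against 10.2% of all genes tested. Without replicate 2 of VHH-OD-Fc, the library high in muscle RNA, the Dcn difference was 0.20.

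VHH-OD-PD-1-Fc against VHH-PD-1-Fc asks what the OD domain adds. All 10 differences were positive, as were those of 8299 of the 14306 genes tested. The median was 0.51 over the markers and 0.04 over all genes tested. The 10 genes share libraries, so their like signs are not independent. Limma called none of the 10, against 0.839% of all genes tested called in either direction. At an unadjusted p under 0.05 there were 2 of 10, against 15.5% of all genes tested. They were Fbln1, at 0.97 (SE 0.25, adjusted p = 0.105), whose mean was 3.70 ± 0.285 FPKM in VHH-OD-PD-1-Fc tumours and 1.43 ± 0.473 FPKM in VHH-PD-1-Fc tumours (SD, n = 3 each), and Thy1, at 0.53 (SE 0.13, adjusted p = 0.102), with 57.0 ± 1.31 FPKM in VHH-OD-PD-1-Fc tumours and 39.6 ± 6.08 FPKM in VHH-PD-1-Fc tumours (SD, n = 3 each). The libraries of these groups did not overlap for either gene nor for Pdgfra, 3 of 10 higher without overlap against 13.8% of all genes tested. Thy1 was called without replicate 2 of VHH-PD-1-Fc (0.64, adjusted p = 0.0474) or replicate 1 of Ctrl (0.53, adjusted p = 0.0467), and Lox without replicate 3 of VHH-PD-1-Fc (0.92, adjusted p = 0.021).

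The difference from additivity subtracts the separate effects of VHH-PD-1-Fc and VHH-OD-Fc on the log2 scale, each taken against Ctrl, where both domains are joined. The doses differ, so it describes these groups and not a strict factorial design. It called none of the 10 genes in limma, against 0.112% of all genes tested. At an unadjusted p under 0.05 there was 1 of 10, against 11.9% of all genes tested: Thy1, at 0.48 (SE 0.19, adjusted p = 0.355). Pdpn stood at 0.82 (adjusted p = 0.554) and Fbln1 at 0.57 (adjusted p = 0.585).

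Fibrillar collagen, the defining product of fibroblasts, was abundant in every library: Col1a1 had 315, 320 and 312 FPKM in VHH-OD-PD-1-Fc tumours, 128, 263 and 195 FPKM in VHH-PD-1-Fc tumours, 589, 529 and 362 FPKM in VHH-OD-Fc tumours and 302, 441 and 447 FPKM in Ctrl tumours. The 30 other fibroblast genes listed, mostly collagens and matrix proteins, moved in the direction of the markers after VHH-PD-1-Fc: 14 of the 29 tested fell and none rose against Ctrl, with a median of -0.66, where 32.3% of all genes tested fell and their median was -0.19. Among them were Col5a1 (-1.46, adjusted p = 0.00012), a regulator of fibril diameter, the collagen-degrading protease Ctsk (-2.24, adjusted p = 0.00027), Col12a1 (-1.42, adjusted p = 0.00042) and the gelatinase Mmp2 (-1.80, adjusted p = 0.00045). After VHH-OD-PD-1-Fc 10 of the 29 fell against Ctrl and 2 rose, with a median of -0.39, a share not far above the 27.1% of all genes tested that fell. The 2 were Vim and S100a4, named after their values were seen. The count of genes that fell was 5 to 14 after VHH-OD-PD-1-Fc and 11 to 20 after VHH-PD-1-Fc under the other scalings and the length and GC correction. The highest counts were reached on TPM, where 6192 of 14306 genes tested fell after VHH-OD-PD-1-Fc and 6800 after VHH-PD-1-Fc. With the length and GC correction 2100 and 2230 of 13533 fell, in that order. Set against VHH-PD-1-Fc tumours, those given VHH-OD-PD-1-Fc had 2 of the 29 called higher, Ctsk at 1.56 (adjusted p = 0.0421) and the intermediate filament gene Vim at 0.67 (adjusted p = 0.0421). On TPM or with the length and GC correction 1 of the 29 was called higher, and 0 after median-of-ratios scaling or quantile normalization.

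Genes listed for fibroblast states were counted against the same backgrounds. They were read in bulk tumour RNA, so the counts do not measure a state of fibroblasts. Which cells made these transcripts was not tested. As deposited these were 27.1% of all genes tested lower after VHH-OD-PD-1-Fc and 32.3% after VHH-PD-1-Fc. Of 13 genes of the myofibroblastic state, which make contractile proteins and matrix, 6 fell after VHH-PD-1-Fc against Ctrl, led by Tnc (-1.69, adjusted p = 0.0014) and Thbs2 (-1.36, adjusted p = 0.0017), and 2 fell after VHH-OD-PD-1-Fc, a share below the background. On TPM 6 of the 13 fell after VHH-OD-PD-1-Fc and 8 after VHH-PD-1-Fc, after quantile normalization 4 and 5, and after median-of-ratios scaling 1 and 4. Of all 14306 genes tested, 6192 and 6800 fell on TPM, in the same order of groups. After quantile normalization 2573 and 2593 fell, and after median-of-ratios scaling 2624 and 2843. On TPM the share after VHH-OD-PD-1-Fc was thus near that of all genes tested. Of 12 genes of the inflammatory state, 6 fell after VHH-PD-1-Fc, among them the chemokines Cxcl12 (-1.58, adjusted p = 0.00089) and Ccl2 (-2.04, adjusted p = 0.0024) and the matrix genes Dpt (-2.12, adjusted p = 0.0016) and Clec3b (-2.27, adjusted p = 0.010). After VHH-OD-PD-1-Fc 2 of the 12 fell, Cxcl12 (-1.14, adjusted p = 0.0058) and Dpt (-1.29, adjusted p = 0.022), again a share below the background. On TPM 5 of the 12 fell after VHH-OD-PD-1-Fc and 9 after VHH-PD-1-Fc. The former share was again near that of all genes tested on TPM. Of 7 genes of the antigen-presenting state, none was called after VHH-PD-1-Fc and 1, Msln (-0.40, adjusted p = 0.020), fell after VHH-OD-PD-1-Fc. The first 2 lists kept negative medians under every scaling tried, while the antigen-presenting list had no stable direction. Its median after VHH-PD-1-Fc was -0.13 as deposited, 0.10 after median-of-ratios scaling with 2 genes called higher, -0.43 after quantile normalization with 2 called lower, and -0.35 on TPM with 1 called lower. The difference in counts between the groups was not tested.

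Relatives of the markers behaved unevenly after VHH-PD-1-Fc against Ctrl. In that comparison 32.3% of all genes tested were called lower, and 2092 of 14306 were called higher. After VHH-OD-PD-1-Fc 27.1% were called lower. Lists as short as those below give only coarse shares to set beside these. Of the 6 small leucine-rich proteoglycans tested beside Dcn and Lum, 3 fell, Fmod (-1.11), Prelp (-1.31) and Podn (-1.03), with adjusted p between 0.025 and 0.032. The same list had 0 called genes after removal of length and GC trends. Of the 4 lysyl oxidase relatives, 3 fell: Loxl4 (-1.11, adjusted p = 0.0088), Loxl2 (-0.88, adjusted p = 0.011) and Loxl1 (-0.56, adjusted p = 0.030), with 1 called after removal of those trends. Of the 4 other fibulins, Efemp1 (-1.48, adjusted p = 0.015) and Fbln2 (-1.05, adjusted p = 0.015) fell and Efemp2 (0.32, adjusted p = 0.023) rose, and no fibulin was called higher on TPM or after quantile normalization. Tgfbi, the relative of Postn, fell by 1.24 (adjusted p = 9.8e-05), as did Dpp8 (-0.52) and Dpp9 (-0.31), intracellular relatives of Fap. Of these 3 genes 1 was called after quantile normalization or with the length and GC correction. None of the 3 relatives of Sparc was called after VHH-PD-1-Fc, while Sparcl1, which is also made by endothelium, fell by 1.43 (adjusted p = 0.0047) after VHH-OD-PD-1-Fc.

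Signalling partners of the markers included Pdgfrb and Pdgfb, 2 of the 3 genes of the platelet-derived growth factor list that were tested. Of all genes tested, 32.3% were called lower after VHH-PD-1-Fc and 27.1% after VHH-OD-PD-1-Fc. Pdgfrb, the other platelet-derived growth factor receptor, fell by 0.69 (adjusted p = 0.0021) and the ligand Pdgfb by 0.53 (adjusted p = 0.034) after VHH-PD-1-Fc. Both also fell after VHH-OD-PD-1-Fc, Pdgfb by 0.61 (adjusted p = 0.021) and Pdgfrb by 0.39 (adjusted p = 0.039). After median-of-ratios scaling, quantile normalization or the length and GC correction, 0 of the 3 were called after VHH-OD-PD-1-Fc and 1 after VHH-PD-1-Fc. Among 6 ligands and receptors of transforming growth factor beta, Tgfbr2 alone was called as deposited, at -0.45 (adjusted p = 0.020) after VHH-PD-1-Fc. After median-of-ratios scaling 2 of the 6 were called higher, where 3129 of 14306 genes tested rose.

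**Figure D4:**
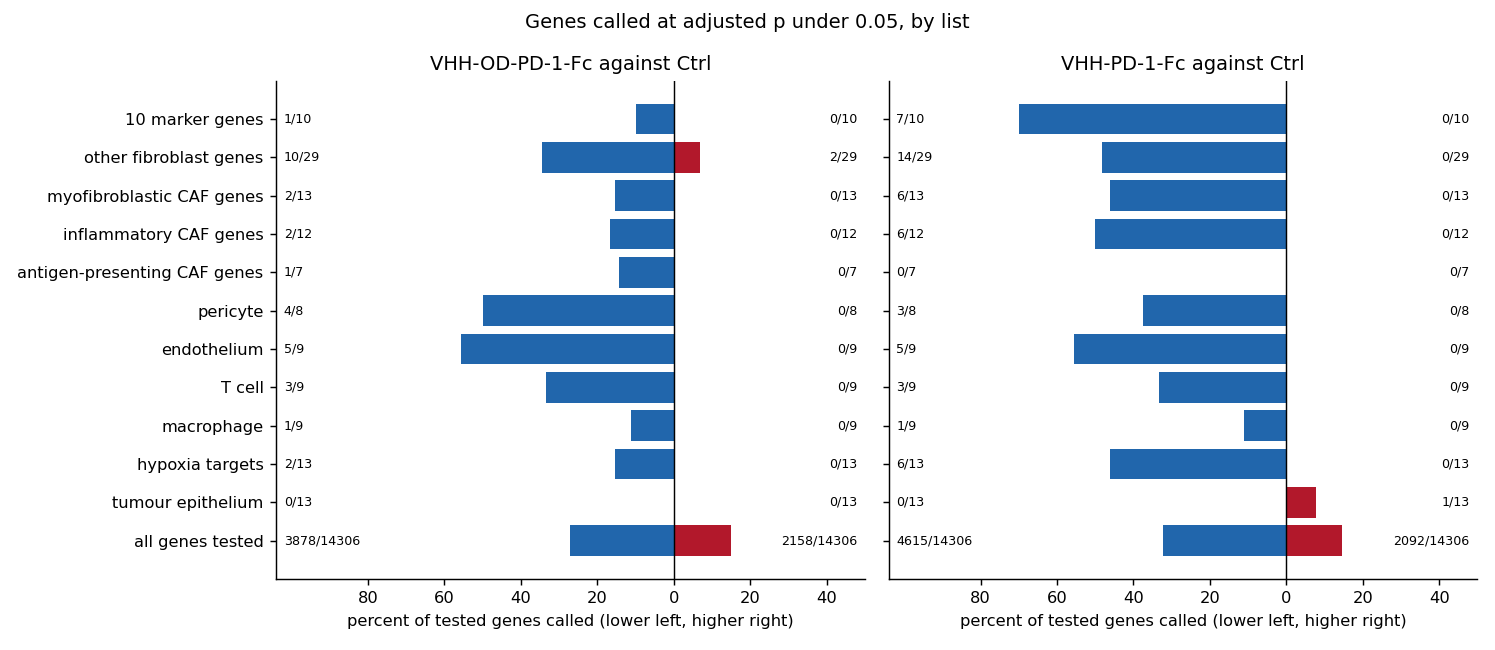
Percent of the tested genes of each list called lower (left of 0) and higher (right of 0) in limma after VHH-OD-PD-1-Fc and VHH-PD-1-Fc against Ctrl, with the counts at the margins. Of the 10 markers, 1 is lower after VHH-OD-PD-1-Fc and 7 after VHH-PD-1-Fc, while 5 of 9 endothelial genes are lower in each panel.

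Markers of other stromal cells moved in the same tumours. Of 9 endothelial genes, 5 fell after VHH-PD-1-Fc against Ctrl, led by Kdr (-0.85, adjusted p = 0.00033) and Pecam1 (-0.95, adjusted p = 0.00038), and 5 fell after VHH-OD-PD-1-Fc. The shares over all genes tested were 32.3% after VHH-PD-1-Fc and 27.1% after VHH-OD-PD-1-Fc. Under the other scalings and the length and GC correction, 3 to 6 endothelial genes fell after VHH-OD-PD-1-Fc and 4 to 6 after VHH-PD-1-Fc. The summed endothelial level was 95.0 to 99.0 FPKM in VHH-OD-PD-1-Fc tumours, 82.9 to 113 FPKM in VHH-PD-1-Fc tumours, 137 to 169 FPKM in VHH-OD-Fc tumours and 121 to 146 FPKM in Ctrl tumours. Of 8 pericyte genes, 4 fell after VHH-OD-PD-1-Fc, Mcam (-0.95, adjusted p = 0.00033) and Rgs5 (-0.95, adjusted p = 0.0064) among these, and 3 after VHH-PD-1-Fc, a share near that of all genes tested. These counts were 2 to 6 and 1 to 4 under the other scalings and the length and GC correction. For endothelial and pericyte genes the highest counts were reached on TPM. There 6192 of 14306 genes tested fell after VHH-OD-PD-1-Fc and 6800 after VHH-PD-1-Fc. The summed level of the tumour epithelial markers overlapped among the groups, at 2738 to 2809 FPKM in VHH-OD-PD-1-Fc tumours, 2122 to 3922 FPKM in VHH-PD-1-Fc tumours, 2452 to 2636 FPKM in VHH-OD-Fc tumours and 1263 to 3029 FPKM in Ctrl tumours. Of 9 macrophage genes, 1, Adgre1 (-0.75, adjusted p = 0.039), was called lower in limma after VHH-PD-1-Fc. The median of the 9 was -0.10, and 3 were positive. After median-of-ratios scaling 3 of the 9 were called higher, where 3129 of 14306 genes tested rose. Their summed level was 1336 to 1352 FPKM in VHH-OD-PD-1-Fc tumours and 1036 to 2992 FPKM in VHH-PD-1-Fc tumours. It was 766 to 1019 FPKM in VHH-OD-Fc tumours and 846 to 1521 FPKM in Ctrl tumours. None of the endothelial, pericyte and macrophage markers was at 0 in any library. The part of cell composition in the marker levels was not tested.

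The genes most like the markers were sought by their spread within groups, so that the group differences did not enter. For each of the 12 libraries, the log2 values had their group means subtracted and were divided by their SD, and the 10 markers were averaged. Among the highest correlations with that average were those of Sfrp1 (0.96), a secreted inhibitor of Wnt signalling, Bag1 (0.95), Medag (0.94), Mrpl52 (0.94), Usp2 (0.94), Rcn3 (0.94), Cd33 (0.94), Rpl36a (0.93) and Depp1 (0.93). Among the markers themselves, the correlation was 0.88 for Dcn and Lum, 0.77 for Fbln1, 0.75 for Lox, 0.72 for Fap, 0.69 for Sparc, 0.49 for Pdgfra, 0.31 for Pdpn, 0.08 for Postn and -0.04 for Thy1, each of which is part of the average. The points share libraries and depth, and these values are a description.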

How the data were processed

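RNA-seq of 12 mouse tumour samples, 3 in each of 4 groups, was used as deposited. Poly(A) RNA was read in pairs of 150 bp, per the labels' protocols. The submitters' processing notes list fastp 0.22.0, HISAT2 2.2.1 and GRCh38. GRCh38 is a human build, while the table's symbols are those of mouse genes. The authors deposited FPKM values for 41009 gene symbols. How they were made, with which annotation and with or without strand, is not given in the sources used here, so reads of overlapping genes may be shared and no gene coordinates were taken from the table. The series' design text is about a different tumour model, so groups were taken from the sample labels. Every column was matched to a sample by its name.

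FPKM values are not counts, so limma 3.58.1 in R 4.3.3 was run on log2(FPKM + 1) with a variance trend, on the 14306 genes that reached 1 FPKM in 3 or more libraries. The fit used 12 libraries and 4 group means (8 residual and 3.03 prior degrees of freedom). Adjusted p-values are two-sided, by Benjamini-Hochberg over all genes tested, and a gene was called under 0.05. The fit was tested on simulated data. Depth was estimated from the steps between low values of 18383 genes with 1 annotated transcript (GENCODE M21). Of these low values 65.5% to 71.6% lay within 0.05 of whole fragments, so no counts were derived for the tests and depth is approximate. The fragments given for Fap and Sparc are rough, from this depth and the longest annotated transcript of each gene.

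The 10 genes, the other gene lists and the tests were chosen with earlier results of these data known. All 10 genes are described in every library. From each other list up to 4 genes of smallest p in the comparison described, and relatives of the markers, could be named, and the 10 genes most like the markers were chosen by Pearson's r, of which 1 is not reported here. Alternatives were another pseudocount (0.1), no filter or a mean FPKM of at least 5, rescaling to TPM, median-of-ratios and quantile scaling, library weights, a replicate block, averaging VHH-OD-PD-1-Fc into 1 sample, removal of length and GC trends, and leaving out libraries. Transcript lengths were matched for 94.6% of the genes tested.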

Additional observations from a re-analysis of the deposited data

How the results depend on the processing

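No setting called any of the 10 markers in VHH-OD-Fc against Ctrl or in the difference from additivity. Markers called in VHH-PD-1-Fc against Ctrl numbered 7, and 4 with no filter on low values, with median-of-ratios scaling, with quantile normalization or with VHH-OD-PD-1-Fc averaged into 1 sample, 2 corrected for length and GC content, and 4 to 7 when 1 library was left out. In VHH-OD-PD-1-Fc against VHH-OD-Fc they numbered 6, and 2 with no filter or with median-of-ratios scaling. The number was 1 corrected for length and GC content, and 1 to 6 with 1 library left out. It was 3 with 3 libraries left out together (replicate 2 of VHH-PD-1-Fc, replicate 2 of VHH-OD-Fc, replicate 1 of Ctrl). In the average of the markers used for likeness above, these stood at 0.12, 0.89 and -0.24 in that order. Replicates 1 and 3 of VHH-PD-1-Fc, which were kept, stood at -1.02 and 0.91. The 3 libraries left out were picked by no stated rule, with earlier results known. VHH-OD-PD-1-Fc against Ctrl had 1 called, and 3 on TPM and 5 with library quality weights. It had 2 without those 3 libraries and 1 to 3 with 1 library left out. With the weights 4 markers were lower and 1 higher, where 6226 of 14306 genes tested were lower and 3675 higher. On TPM all 3 were lower, where 6192 of 14306 genes tested were lower. Each of these marker shares was below that of all genes tested. In VHH-OD-PD-1-Fc against VHH-PD-1-Fc none was called, and 2 (Postn and Thy1) without those 3 libraries and 0 to 1 with 1 library left out. The F test called 8, and 4 with no filter or with median-of-ratios scaling, 3 with VHH-OD-PD-1-Fc averaged into 1 sample or corrected for length and GC content, 5 without those 3 libraries and 4 to 8 with 1 library left out. The unfiltered fit tested more genes. The fit with 1 VHH-OD-PD-1-Fc sample kept all libraries of the other groups. Its shared spread no longer took in the spread among the VHH-OD-PD-1-Fc libraries. There the SE for VHH-PD-1-Fc against Ctrl was 0.46 for Postn and 0.19 for Fap, against 0.42 and 0.17 with all 12 libraries. The cause of the changed counts was not tested. The share of all genes that was called changed with the setting as well. In VHH-PD-1-Fc against Ctrl 4151 of 41009 genes were lower with no filter, and 2230 of 13533 corrected for length and GC content. In VHH-OD-PD-1-Fc against VHH-OD-Fc these were 3307 of 41009 and 1902 of 13533, and 2587 of 14306 with median-of-ratios scaling.

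With the replicate number as a block, 5 markers were called in VHH-PD-1-Fc against Ctrl and 4 in VHH-OD-PD-1-Fc against VHH-OD-Fc. The labels do not say that equal numbers mark a shared animal or day, and the deviations of same-numbered libraries from their group means had median correlations of -0.002, -0.004 and 0.033, so the numbers were not taken as pairs.

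The sign turned for small differences, none of which was called where it turned. Sparc in VHH-PD-1-Fc against Ctrl was -0.12 on TPM, -0.31 after quantile normalization, -0.11 with library quality weights and -0.29 without the 3 libraries, and ranged between -0.13 and 0.43 with 1 library left out, where the highest value was called. For VHH-OD-PD-1-Fc against Ctrl, Sparc was -0.021 on TPM and -0.25 after quantile normalization, and Fbln1 was 0.047 with median-of-ratios scaling, 0.15 after quantile normalization and 0.14 corrected for length and GC content. In VHH-OD-PD-1-Fc against VHH-OD-Fc, Sparc was 0.12 with median-of-ratios scaling, 0.032 corrected for length and GC content, 0.035 without the 3 libraries and -0.082 to 0.041 with 1 library left out, and Pdpn was 0.052 without the 3 libraries and -0.40 to 0.052 with 1 left out. In VHH-OD-PD-1-Fc against VHH-PD-1-Fc, Fap was -0.029 after quantile normalization and -0.018 corrected for length and GC content. With 1 library left out it was -0.031 to 0.25, Lum -0.041 to 0.80 and Sparc -0.22 to 0.34. In VHH-OD-Fc against Ctrl, Thy1 was -0.053 with library quality weights and -0.10 without the 3 libraries, and Lox -0.10 without them. With 1 library left out, Thy1 was -0.10 to 0.15, Fap -0.042 to 0.15, Pdgfra -0.0091 to 0.22 and Pdpn -0.34 to 0.12. Of the 7 markers not named under the difference from additivity, 6 changed sign in at least 1 of 23 settings and 0 were called in any. Depth limits Fap most, and precision for all 10 is set by 3 libraries a group.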
